A study of Mus musculus with 12 samples.

Results

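The genes described here are 9 that handle fatty acid entry into cells or are known targets of PPAR-gamma: Pparg, Cd36, Fabp1, Fabp2, Fabp4, Slc27a2, Slc27a4, Lpl and Vldlr. They were taken by gene name, as all rows of the deposited transcript table that carry one of these names. The rows of a gene were summed in each liver. The names were chosen with earlier results of these data known. The table resolved to 22983 genes, and all 9 were found and were among the 12037 genes tested, those with an average of 0.5 FPKM or more across all livers. FPKM counts fragments relative to the length of the transcript and the size of the library. It allows a rough comparison between genes and between livers, but comparisons between livers still depend on scaling, as given below.

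The livers came from male C57BL/6J mice, an inbred strain that becomes obese on fat-rich food, with 3 livers in each of 4 groups. From 5 weeks of age the mice ate a normal diet (ND), a high-fat diet (HFD), the HFD with 1.5% by weight of an ethanol extract of chrysanthemum leaf (CLE), or the HFD with 0.003% by weight of luteolin (LU), a flavone that the extract contains. All were fed for 16 weeks and were 21 weeks old, and CLE and LU mice carried the HFD as well, so that HFD livers are their control. The study chose representative livers of each group for sequencing, which were taken after a fast, and no mouse carried an engineered allele.

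PPAR-gamma, the product of Pparg, is a nuclear receptor that binds DNA as a partner of RXR and switches on genes of lipid storage. It is most abundant in adipocytes, is low in normal liver, and is known to be raised in fatty livers of mice. Triglyceride in blood lipoproteins is split by lipoprotein lipase, the freed fatty acids enter cells with help from CD36 and the SLC27 transport proteins, and FABP proteins carry them in the cytosol.

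The levels of the 9 genes spanned a wide range. By mean FPKM over the 12 livers, Fabp1, the main fatty acid carrier of hepatocytes, was at 11419 and ranked 4 of all genes. Slc27a2, the very long-chain acyl-CoA synthetase and transport protein FATP2 of liver, followed at 1487 and rank 51, Fabp2, the intestinal fatty acid carrier, at 261 FPKM and Cd36 at 89.2 FPKM. Fabp4, the carrier typical of adipocytes and macrophages, was at 27.9 FPKM, Slc27a4 at 13.5, Lpl at 12.2, Pparg at 9.93 and Vldlr at 2.11 FPKM. Neither of the 2 genes with the highest levels was called between HFD and ND livers.

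The DNA that PPAR-gamma and RXR recognise is a pair of half-sites AGGTCA separated by 1 base, written AGGTCANAGGTCA. RefSeq promoters of GRCm38.p6, from 250 bases before to 50 after a transcription start, were available for 7 of the 9 genes in 10 windows, Lpl and Fabp4 having none, and each was searched on both strands for its best match over the 12 fixed letters. The windows shown are the 2 with the closest matches, together with the promoter of the downstream start of Pparg, whose row held the difference in mean between HFD and ND livers. Capitals mark the best match, and each sequence is given 5′ to 3′ on the strand of its gene. In the Pparg window 3 places matched equally well, and the capitals mark the first of them.
Fabp1, chr6:71199629-71199928, plus strand: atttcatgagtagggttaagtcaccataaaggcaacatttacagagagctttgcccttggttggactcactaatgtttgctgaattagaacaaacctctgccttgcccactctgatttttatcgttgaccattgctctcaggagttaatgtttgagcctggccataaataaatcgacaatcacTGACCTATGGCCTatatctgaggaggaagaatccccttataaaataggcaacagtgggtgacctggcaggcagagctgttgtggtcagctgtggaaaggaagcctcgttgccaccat
Cd36, chr5:17835847-17836146, minus strand: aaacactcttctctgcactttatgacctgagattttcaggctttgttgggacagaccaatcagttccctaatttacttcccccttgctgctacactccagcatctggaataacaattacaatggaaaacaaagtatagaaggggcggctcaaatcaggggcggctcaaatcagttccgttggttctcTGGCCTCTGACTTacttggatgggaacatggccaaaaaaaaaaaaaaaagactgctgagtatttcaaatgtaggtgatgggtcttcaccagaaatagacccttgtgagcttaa
Pparg downstream start, chr6:115421816-115422115, plus strand: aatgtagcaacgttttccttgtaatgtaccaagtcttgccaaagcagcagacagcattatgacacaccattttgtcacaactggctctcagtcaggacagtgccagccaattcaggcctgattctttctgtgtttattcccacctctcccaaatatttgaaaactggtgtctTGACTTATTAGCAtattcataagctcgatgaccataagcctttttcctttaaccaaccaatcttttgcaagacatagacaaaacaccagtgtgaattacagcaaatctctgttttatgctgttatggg

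The Fabp1 match differed from the motif, read on the other strand, at 1 of 12 letters and lay 67 to 55 bases before the start. Of all 32851 promoters in the RefSeq table, 0.554% held a match with at most 1 mismatch. The Cd36 match had 2 mismatches and lay 63 to 51 bases before the start, a quality reached by 3.86% of promoters. Fabp2 (TGCACTTTGAACT, 137 to 125 bases before the start) and Slc27a2 (ACGCCTTTGACCT, 227 to 215 bases before) had 3 mismatches, as 24.6% of promoters had or bettered. The Pparg windows had 4 at best, which 79.8% of promoters reached, and those of Slc27a4 and Vldlr had 4 or 5. The half-site AGGTCA alone was in 16.3% of promoters. These are matches of letters within short windows and not measured binding.

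On the HFD, 6 of the 9 genes rose: Lpl, Cd36, Vldlr, Fabp4, Pparg and Fabp2. Over all genes tested 11.9% differed between HFD and ND livers and 9.81% were higher in HFD livers, by limma's test on log2(FPKM + 1) at a Benjamini-Hochberg adjusted p of 0.05. The HFD and ND values did not overlap for 7 of the 9, against 36% of all genes. The median log2 fold change was 0.70 over the 9 genes and 0.11 over all genes. This last shift depends on scaling, since with median-of-ratios scaling the median of all genes was -0.01 and 55.1% of called genes were higher instead of 82.8%. All 6 stayed higher in HFD livers under that scaling, with Pparg at 0.55 (limma adjusted p = 0.065) and Fabp2 at 0.39 (limma adjusted p = 0.15) no longer past the threshold.

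**Figure D1:**
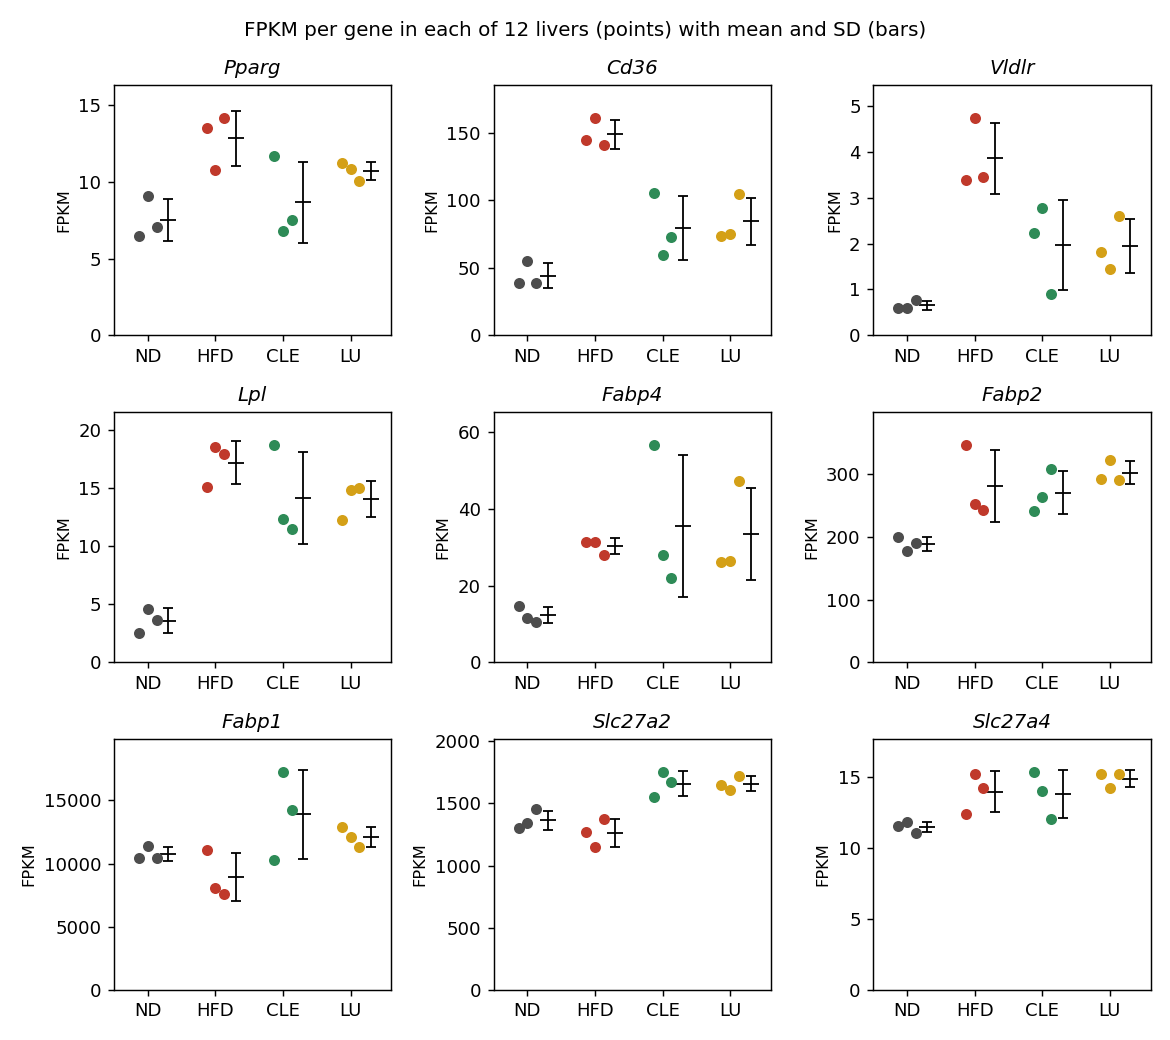
FPKM of each of the 9 genes in the 12 livers, with groups on the x axis, 1 point per liver, and the bar beside each group at its mean with SD (n = 3); each y axis starts at 0. Cd36 lies between 141 and 161 FPKM in HFD livers, above every liver of the other groups, while Fabp1 and Slc27a2 have their lowest group mean on the HFD.

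Pparg, the receptor gene, was at 6.47, 9.08 and 7.05 FPKM in the ND livers, 13.5, 10.8 and 14.2 in the HFD livers, 11.7, 6.82 and 7.49 in the CLE livers and 11.2, 10.8 and 10.1 in the LU livers. Every HFD liver was above every ND liver, and the CLE livers spread from the ND range to the HFD range, with CLE mouse 2 the high one. The mean rose from 7.53 ± 1.37 to 12.8 ± 1.79 FPKM (SD, n = 3), 1.70 times, with a log2 fold change of 0.70 (SE 0.18, limma adjusted p = 0.024). The call was lost when ND mouse 2, ND mouse 4, HFD mouse 12 or HFD mouse 18 was left out, with log2 fold changes of 0.61 to 0.82 over all such fits. Against HFD, CLE livers differed by -0.54 (limma adjusted p = 0.077) and LU livers by -0.23 (limma adjusted p = 0.47). CLE livers also did not differ from ND livers past the threshold, at 0.16 with a 95% interval of -0.23 to 0.54.

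Pparg makes transcripts from separate starts, and the protein from the downstream start, PPAR-gamma 2, has additional residues at its amino end and is the form typical of adipocytes. In GENCODE M21 the transcript from the upstream start (chr6:115361221-115490401, ENSMUST00000171644) has 475 codons and that from the downstream start (chr6:115422066-115490401, ENSMUST00000000450) has 505. The rows from the upstream start held 4.06 ± 0.84 FPKM in ND and 3.57 ± 0.44 in HFD livers. The downstream row held 1.62, 4.92 and 3.87 FPKM in the ND livers and 9.83, 6.82 and 11.1 in the HFD livers, with no overlap. Its share of the gene was 25.1% to 54.9% in ND livers and 63.2% to 78.1% in HFD livers. In CLE livers the downstream row was at 6.34, 2.26 and 5.07 FPKM and its share spread over 33.2% to 67.7%, and in LU livers it was at 7.19, 7.71 and 7.39 FPKM with a share of 64.1% to 73.5%. The program that made the values divides fragments between overlapping transcripts, so these shares are estimates and were given no test.

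**Figure D2:**
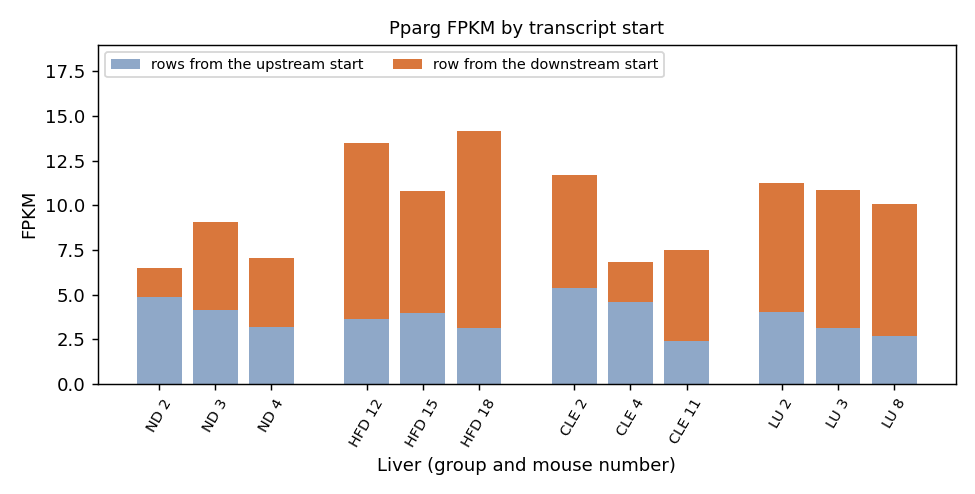
Pparg FPKM in each liver, divided into transcripts from the upstream and the downstream start (stacked bars from 0; x axis, group and mouse number). The upstream part overlaps between ND and HFD livers, 4.06 against 3.57 FPKM on average, and the downstream part is higher in the 3 HFD livers.

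Lpl, the lipase that frees fatty acids from lipoprotein triglyceride at the vessel wall, had the largest change of the 9 genes between HFD and ND livers on the log2(FPKM + 1) scale, while Vldlr had the larger ratio of means. It was at 2.51, 4.61 and 3.69 FPKM in ND livers, 15.07, 18.5 and 17.9 in HFD livers, 18.7, 12.3 and 11.5 in CLE livers and 12.3, 14.8 and 15.03 in LU livers. All 9 livers of mice on fat-rich food were above all ND livers. The HFD mean was 17.2 ± 1.85 FPKM against 3.604 ± 1.06 in ND, a ratio of 4.76 and a log2 fold change of 2.002 (SE 0.19, limma adjusted p = 6.6e-05). Neither supplement moved it past the threshold, with -0.28 for CLE (95% interval -0.70 to 0.14) and -0.27 for LU (-0.69 to 0.15) against HFD. These turned to 0.083 and 0.17 with the transcript of highest mean, and LU to 0.037 with known transcripts. The LU and HFD values did not overlap, though by a narrow gap of 15.03 to 15.07 FPKM, while CLE mouse 2 was above every HFD liver.

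Vldlr, the receptor that takes up triglyceride-rich lipoproteins and is normally scarce in liver, had the lowest levels. Its values were 0.592, 0.592 and 0.769 FPKM in ND livers, 3.38, 4.74 and 3.44 in HFD, 2.23, 2.78 and 0.891 in CLE, and 1.81, 1.45 and 2.59 in LU livers. The 4 groups were ordered ND, then CLE and LU together, then HFD, and neither the CLE nor the LU values overlapped those of HFD or ND. The mean of HFD livers was 5.92 times that of ND livers, with a log2 fold change of 1.55 (SE 0.23, limma adjusted p = 0.0011), a scale that understates the change of so low a gene. Against HFD, the means of CLE and LU were 0.510 and 0.506 times as high, but the log2 fold changes of -0.76 (limma adjusted p = 0.06) and -0.73 (limma adjusted p = 0.13) did not pass. At these low levels 1 liver, CLE mouse 11, was close to the ND range.

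Cd36, the fatty acid translocase of the cell surface and a direct PPAR-gamma target, was higher in the HFD livers than in every other liver. It was at 38.6, 55.0 and 38.8 FPKM in ND livers, 144, 161 and 141 in HFD livers, 106, 59.6 and 73.0 in CLE livers and 73.7, 74.8 and 105 in LU livers. No pair of these groups overlapped except CLE with LU. The mean rose from 44.1 ± 9.41 to 149 ± 10.8 FPKM, 3.37 times, with a log2 fold change of 1.75 (SE 0.21, limma adjusted p = 0.00023). In CLE livers it was lower than in HFD livers, with a log2 fold change of -0.94 (SE 0.21, limma adjusted p = 0.035), or 0.534 times the HFD mean, and it was the 1 gene of the 9 called in that comparison. In LU livers the mean was 0.567 times that of HFD, and the difference of -0.83 (SE 0.21, limma adjusted p = 0.078) did not pass.

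The CLE call of Cd36 sat close to the threshold. Leaving out HFD mouse 12, 15 or 18, or CLE mouse 4 or 11, gave limma adjusted p of 0.059 to 0.14, and with HFD and CLE fitted alone it was 0.075. With known transcripts only the difference was -0.66 (limma adjusted p = 0.058), and for the transcript with the highest mean, at 57.9 FPKM in HFD and 41.3 in CLE livers, it was -0.48 (limma adjusted p = 0.13). Without CLE mouse 2 the difference was -1.16 (limma adjusted p = 0.0067). The LU difference passed with LU and HFD fitted alone (limma adjusted p = 0.034) and without LU mouse 8 (-0.99, limma adjusted p = 0.044). It also passed without CLE mouse 2 or CLE mouse 4, so in 3 of 12 fits that leave out 1 mouse. The difference between CLE and LU livers was -0.11 with a 95% interval of -0.55 to 0.34.

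The Cd36 rows also differed by start. The window printed above belongs to the start at position 17835896, from which 2 of the 8 rows begin, with 7.63% of the gene's FPKM. The rows from it were at 6.502, 7.92 and 6.36 FPKM in ND livers and 6.57, 7.39 and 7.25 in HFD livers, which overlap. Those from other starts, the largest of which begins 13896 bases upstream, went from 37.2 ± 8.55 FPKM in ND to 142 ± 10.6 in HFD livers, and were at 73.8 ± 20.9 in CLE and 76.7 ± 16.8 in LU livers. The start with the close motif match was not that of the rows that held the difference, a description that also rests on estimated transcript shares. Whether the match bears on the level of Cd36 was not tested.

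The SLC27 transport proteins behaved otherwise. Slc27a2 was at 1300, 1343 and 1451 FPKM in ND livers, 1266, 1148 and 1374 in HFD livers, 1554, 1754 and 1672 in CLE livers and 1650, 1607 and 1722 in LU livers. HFD and ND livers overlapped, and every CLE and LU liver was above every HFD and ND liver. The HFD against ND difference was -0.11 (95% interval -0.38 to 0.15). Both supplements were at 0.40 against HFD (95% interval 0.13 to 0.66), with limma adjusted p of 0.064 for CLE and 0.12 for LU. The exact permutation test, which took every one of the 15400 ways to assign the 12 livers to 4 groups of 3, gave p = 0.0027, unadjusted, where 6.5e-05 is the smallest p it can give.

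The separation of Slc27a2 rests on how rows were combined. Known transcripts alone held 958 ± 110 FPKM in ND, 805 ± 166 in HFD, 756 ± 213 in CLE and 801 ± 161 in LU livers, whereas the newly assembled rows held 407 ± 81.8, 458 ± 143, 905 ± 313 and 858 ± 105. The higher sums in CLE and LU livers were thus in assembled rows, and rows placed on the opposite strand made up 3.54% of the gene. Slc27a4, the transport protein FATP4, was at 11.6, 11.8 and 11.1 FPKM in ND livers and 12.4, 15.2 and 14.3 in HFD livers, without overlap, but the difference of 0.26 (SE 0.11, limma adjusted p = 0.16) did not pass. CLE livers at 15.4, 14.0 and 12.0 and LU livers at 15.2, 14.2 and 15.2 FPKM lay within or near the HFD range. Here too the assembled share of the gene differed, at 15.3% in ND, 33.7% in HFD, 65% in CLE and 63.7% in LU livers. With known transcripts alone the means were 9.73 FPKM in ND, 9.27 in HFD, 4.84 in CLE and 5.40 in LU livers, and the log2 fold change turned to -0.045 for HFD against ND and -0.70 for LU against HFD.

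Among the cytosolic carriers, Fabp4 and Fabp2 rose on the HFD and Fabp1 did not. Fabp4 was at 14.7, 11.6 and 10.7 FPKM in ND livers, 31.4, 31.5 and 27.9 in HFD, 56.8, 27.99 and 22.1 in CLE, and 26.3, 26.6 and 47.2 in LU livers. No liver of a mouse on fat-rich food was as low as an ND liver, and CLE mouse 2 and LU mouse 8 stood above the rest. HFD livers differed from ND livers by 1.24 on the log2 scale (SE 0.29, limma adjusted p = 0.017), and the mean was 2.46 times as high. The call was lost without ND mouse 4, HFD mouse 12 or HFD mouse 15, at limma adjusted p of 0.062, 0.058 and 0.051. Against HFD, CLE differed by 0.11 (95% interval -0.52 to 0.75) and LU by 0.08 (-0.55 to 0.72).

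Fabp2 was at 199, 178 and 191 FPKM in ND livers, 347, 252 and 243 in HFD, 241, 264 and 308 in CLE, and 293, 323 and 291 in LU livers. Every ND liver was below every other liver, and the 3 groups on fat-rich food overlapped. The mean was 189 ± 10.9 FPKM in ND and 281 ± 57.4 in HFD livers, with a log2 fold change of 0.55 (SE 0.14, limma adjusted p = 0.026). Without HFD mouse 12, the highest liver, it was 0.39 (limma adjusted p = 0.096), and leaving out any 1 ND mouse also ended the call.

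Fabp1 was at 10439, 11398 and 10423 FPKM in ND livers, 11091, 8084 and 7547 in HFD, 10244, 17261 and 14215 in CLE, and 12904, 12123 and 11298 in LU livers. The HFD group held the lowest livers but overlapped the ND group, and all LU livers were above all HFD livers. HFD differed from ND by -0.29 (95% interval -0.77 to 0.19). CLE was higher than HFD by 0.63 (SE 0.22, limma adjusted p = 0.089) and LU by 0.46 (SE 0.22, limma adjusted p = 0.26), neither past the threshold. With quantile scaling Fabp1 was at 0.00 for CLE and -0.037 for LU against HFD. Fabp1 had the closest match to the motif of the 7 genes whose promoter was searched, and it was not called on the HFD. Whether the match bears on its level was not tested.

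**Figure D3:**
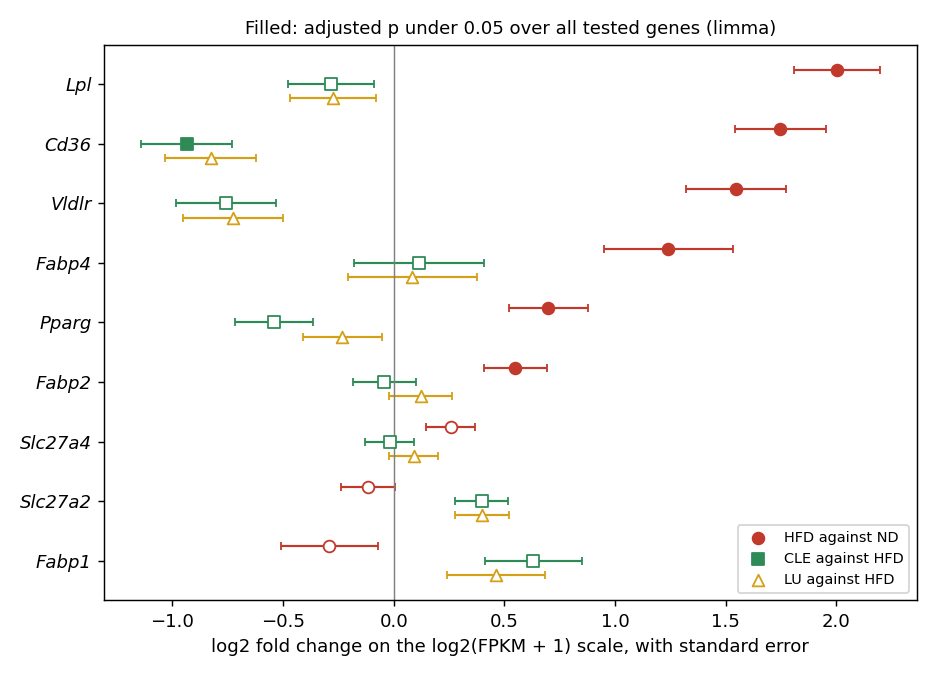
Log2 fold changes of the 9 genes on the log2(FPKM + 1) scale with standard errors (x axis) for the HFD compared with ND and for each supplement compared with HFD; filled symbols passed an adjusted p of 0.05 over all tested genes. Lpl, Cd36, Vldlr, Fabp4, Pparg and Fabp2 are filled and right of 0 for HFD against ND, and of the supplement comparisons Cd36 at -0.94 for CLE is the filled one.

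Compared with HFD livers, CLE livers thus had 1 of the 9 genes called, where 5.47% of all genes were called and 3.04% were called lower. LU livers had 0 of 9, where 1.01% of all genes were called. By the unadjusted limma p, 5 of the 9 genes were under 0.05 for CLE and 3 for LU. Of all 12037 genes tested, 3535 were for CLE and 2446 for LU. Values did not overlap for 3 of 9 in CLE against HFD (31.2% of all genes) and 5 of 9 in LU against HFD (30.1%). The median log2 fold change of the 9 genes was -0.04 for CLE and 0.08 for LU, beside 0.02 and -0.02 over all genes. The first count depended on single mice. Without CLE mouse 2 5 of the 9 were called, Cd36, Pparg at -0.75 (limma adjusted p = 0.011) and Vldlr at -0.85 (limma adjusted p = 0.041) lower, and Fabp1 at 0.84 (limma adjusted p = 0.026) and Slc27a2 at 0.44 (limma adjusted p = 0.04) higher. That fit called 2261 of all 12037 genes, against 658 with every mouse. Without CLE mouse 4 or 11, or any 1 HFD mouse, 0 of the 9 were called, and 29 to 381 of all genes were.

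The same 3 ND livers serve as control for CLE and LU as for HFD, so these values stand side by side and are not independent. Cd36, Fabp2, Fabp4, Lpl and Vldlr were above ND in both supplemented groups. In CLE livers the 5 log2 fold changes were 0.81, 0.51, 1.36, 1.72 and 0.79 in that order, with limma adjusted p of 0.016, 0.023, 0.0086, 0.00065 and 0.025. In LU livers they were 0.92, 0.67, 1.33, 1.73 and 0.82, with limma adjusted p of 0.016, 0.013, 0.015, 0.00062 and 0.032. Vldlr stayed past the threshold in 8 of 13 alternative settings for CLE and 7 of 13 for LU. Both calls were lost without a filter, with quantile scaling, with the highest transcript and with known transcripts (limma adjusted p of 0.054 to 0.11). Of all genes, 26.7% differed between CLE and ND livers and 20.6% were higher in CLE livers, while 14.6% differed between LU and ND livers and 10.9% were higher in LU livers. Of the called genes 77.1% were higher in CLE and 74.8% in LU livers, but with median-of-ratios scaling 42.3% and 40.5% were. Values did not overlap for 7 of 9 genes between CLE and ND (42.1% of all genes) and for 8 of 9 between LU and ND (41%). With fits that leave out 1 mouse, 2 of the 9 genes were still called in each comparison without ND mouse 4. Of all 12037 genes, 1587 were then called for CLE and 649 for LU against ND.

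CLE and LU, an extract and a flavone that it contains, were given at different doses, so their values are set side by side only as diets. None of the 9 genes differed between them by limma, 0 had an unadjusted p under 0.05, and for 0 of 9 did the values not overlap, against 0.00831% of all genes called and 7.04% not overlapping. The differences ran from -0.31 for Pparg (95% interval -0.69 to 0.08) to 0.17 for Fabp1 (-0.31 to 0.65). The intervals do not show that the diets acted alike. For Fabp4 the interval was as wide as -0.60 to 0.66.

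Over the 4 groups together, the exact permutation test of each gene, unadjusted, gave p = 0.00065 for Cd36, 0.0043 for Vldlr, 0.0071 for Lpl, 0.011 for Fabp2, 0.019 for Fabp4, 0.041 for Slc27a4, 0.044 for Pparg and 0.062 for Fabp1. Among the 9 genes, over the 12 livers, Cd36 followed Lpl and Vldlr most closely (Pearson r of log2 values 0.87 for both), and Pparg followed Cd36 (0.84). Fabp1 went with Slc27a2 (0.72) and against Pparg (-0.51). These values share the group differences and the library scaling and are given as a description.

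Of all other tested genes, those whose pattern over the 12 livers was most like that of Cd36 were Abcb1a, a drug efflux pump (r = 0.977), Pcsk6, a proprotein convertase (0.969), and Wwtr1, the transcriptional coactivator TAZ (0.967). For Lpl they were Sod3, the extracellular superoxide dismutase (0.968), Anxa2 (0.965) and Gsta1, a glutathione transferase with near-identical copies whose values are uncertain (0.963). For Pparg they were Syt1 (0.950), Parn (0.933) and Rfc1 (0.924), and for Vldlr Cyp2a22 (0.929), Ephx1 (0.924) and Mthfd1l (0.918). Fabp4 was nearest to Uap1l1 (0.940), Slc39a4 (0.937) and Limk1 (0.936), and Slc27a4 to Slc48a1 (0.906), Limk1 (0.906) and Zfp423 (0.891). Fabp2 was nearest to Cyb5a (0.946), Hsbp1 (0.945) and Fhit (0.944), Fabp1 to Pfdn6 (0.958), Paxx (0.943) and Mrpl30 (0.936), and Slc27a2 to Tbrg1 (0.941), Ube4b (0.934) and Fzd7 (0.928).

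Of the wider pathway, 18 other PPAR-gamma targets were tested, and 4 rose and 1 fell on the HFD, where 9.81% of all genes were called higher and 2.04% lower, with a median log2 fold change of -0.12 against 0.11 over all genes. Those that rose were Cidea, a lipid droplet protein (4.15, limma adjusted p = 6.8e-05), Plin4, a droplet coat protein (2.59, limma adjusted p = 0.00055), Mogat1, a monoacylglycerol acyltransferase (2.19, limma adjusted p = 6e-05), and Fitm1 (0.87, limma adjusted p = 0.011). Glycerol kinase, Gk, fell by 0.59 on the log2 scale (limma adjusted p = 0.032). Mogat1 was lower than HFD in CLE livers (-1.49, limma adjusted p = 0.0044) and in LU livers (-1.39, limma adjusted p = 0.0093), while Cidea (-0.55 and -0.05) and Plin4 (0.22 and 0.17) did not pass in either. Plin5, a droplet protein of oxidative tissues, was higher in CLE than in HFD livers (0.88, limma adjusted p = 0.035).

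Of 12 partners and regulators of lipoprotein lipase examined, 3 rose on the HFD and 1 fell, against the same shares of all genes. Angptl8, which takes part in inhibiting the lipase (2.19, limma adjusted p = 0.016), rose with the proprotein convertase gene Pcsk6 (0.88, limma adjusted p = 0.0011) and the lipase maturation factor Lmf1 (0.57, limma adjusted p = 0.0097). Apoa5, which aids the lipase, fell by 0.76 (limma adjusted p = 0.002). CLE livers differed from HFD livers in Pcsk6 (-0.58, limma adjusted p = 0.035) and Apoa5 (0.61, limma adjusted p = 0.024), or 2 of 12, where 5.47% of all genes were called. Between LU and HFD livers limma called 0 of the 12, with 4 at an unadjusted p under 0.05, as were 2446 of all 12037 genes. The median of the list was 0.235 for HFD against ND, 0.14 for CLE and -0.03 for LU against HFD.

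Genes that activate or bind fatty acids inside the cell differed among themselves. Of 4 long-chain acyl-CoA synthetases, 2 fell on the HFD, Acsl1 by 0.76 and Acsl5 by 0.76 (limma adjusted p = 0.0045 each), and 0 rose. Of all genes tested, 2.04% were called lower and 9.81% higher on the HFD. Of 3 other binding proteins Fabp7 rose (1.03, limma adjusted p = 0.0019) and Fabp5 fell by 3.24 (limma adjusted p = 0.001). Fabp5 was at 53.4, 241 and 51.1 FPKM in ND livers and 9.28, 9.67 and 6.44 in HFD livers, so ND mouse 3 enlarged its difference. Of the 2 further SLC27 genes tested 0 differed between HFD and ND, but Slc27a1 was higher in CLE than HFD livers (1.06, limma adjusted p = 0.048) and Slc27a5, the bile acid and fatty acyl-CoA ligase of liver, lower (-0.53, limma adjusted p = 0.035). Both sat close to the threshold, in a comparison that called 5.47% of all genes. Without HFD mouse 15 that comparison called 29 of 12037 genes. None of 6 membrane proteins linked to fatty acid entry, 6 other lipoprotein receptors and 14 PPAR and RXR receptors and coregulators was called between HFD and ND, where limma gave 1, 2 and 1 with an unadjusted p under 0.05. None of these 26 was called in CLE or LU against HFD either, with 1, 1 and 2 under 0.05 for CLE and 0, 2 and 5 for LU. Of all 12037 genes, 3235 were under 0.05 for HFD against ND, 3535 for CLE and 2446 for LU against HFD.

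**Figure D4:**
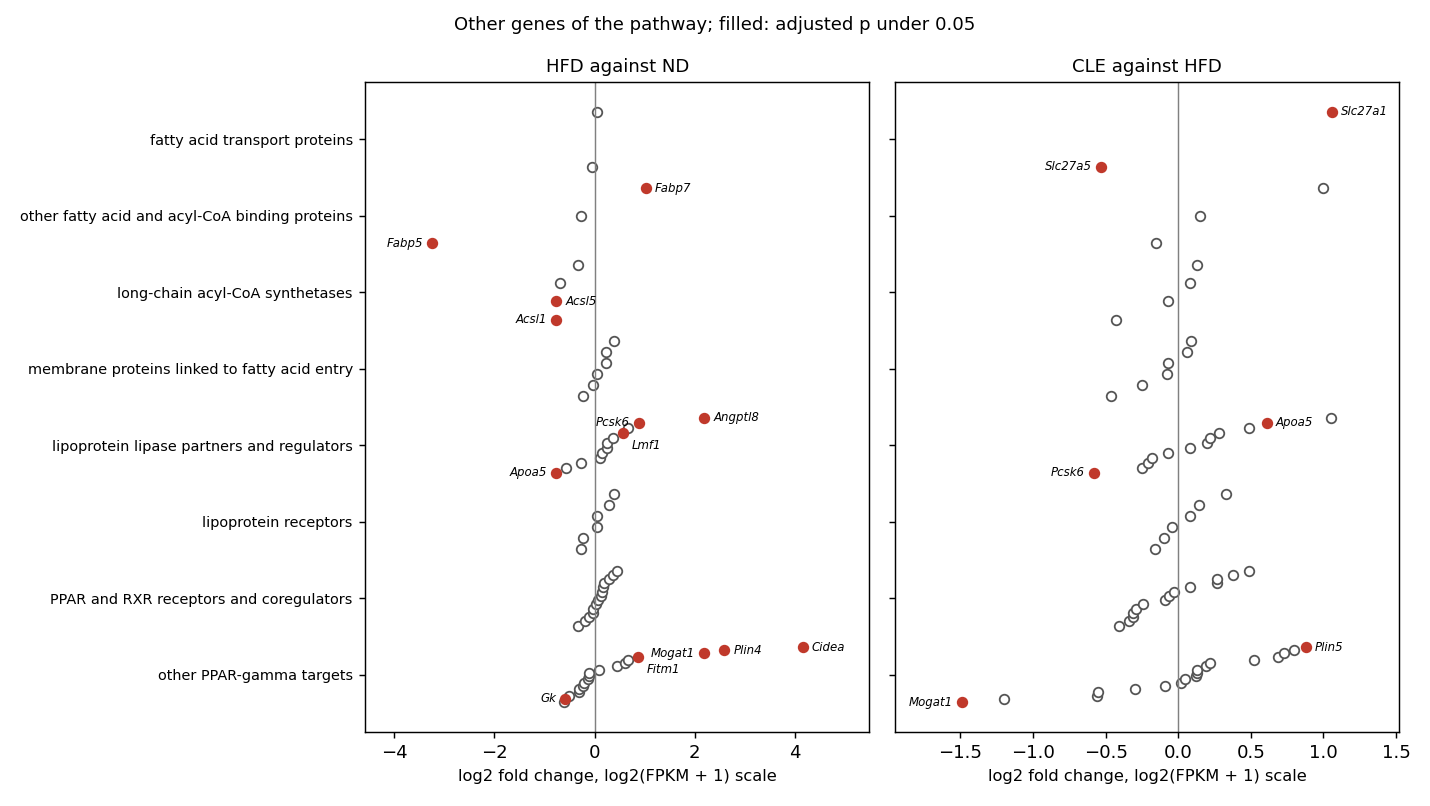
Log2 fold changes on the log2(FPKM + 1) scale (x axis) of the other pathway genes, by list (rows; 1 point per gene), for HFD against ND and CLE against HFD. Filled points passed an adjusted p of 0.05 over all tested genes and are named, such as Cidea at 4.15 and Fabp5 at -3.24 in the left panel.

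In whole liver, more cells of a type and more RNA per cell cannot be told apart, which matters for Fabp4, Lpl, Cd36 and Pparg, all made also by macrophages, endothelial cells or adipocytes. Macrophage markers were higher in HFD than ND livers for 4 of 9 genes, with a summed level of 142 to 168 FPKM in ND, 222 to 342 in HFD, 190 to 296 in CLE and 158 to 289 in LU livers. Stellate cell markers were higher for 5 of 7 (73.4 to 104 FPKM in ND and 130 to 164 in HFD livers) and endothelial markers for 1 of 8 (92.5 to 104 and 115 to 118 FPKM). Of all genes tested, 9.81% were called higher in HFD than ND livers. Against ND, endothelial markers were higher for 4 of 8 in CLE and 2 of 8 in LU livers. Stellate markers were higher for 5 of 7 in CLE and 4 of 7 in LU, and macrophage markers for 3 of 9 and 1 of 9. Of all genes, 20.6% were called higher for CLE and 10.9% for LU against ND. Of the adipocyte markers 4 of 9 passed the filter, and Cfd, which encodes adipsin, rose by 5.11 (limma adjusted p = 0.00021). The others tested, Cidec (0.45), Lipe (0.09) and Pnpla2 (-0.25), were not called between HFD and ND. Against ND, 3 of the 4 tested were higher in CLE livers (Cfd, Cidec and Lipe) and 2 in LU livers (Cfd and Lipe). Retn was at most 0.254 and Slc2a4 at most 0.345 FPKM in any liver. The defining markers Adipoq, Plin1 and Lep were at most 0.145 FPKM in ND, HFD and CLE livers. In the LU livers they stood higher, with Adipoq at 0.759, 0.508 and 0.4999 FPKM, Plin1 at 0.338, 0.211 and 0.1399, and Lep at 0.176, 0.139 and 0.187, where Lep was at 0 in all 9 other livers. Of the 5 muscle and brown fat markers in the table, Cidea was the 1 tested, and Ucp1 was at 0 in all livers. Of the enterocyte and pancreas markers 4 of 9 were at 0 in all livers and Apoa4, which liver also makes, fell by 1.57 (limma adjusted p = 0.039). The part of other cells in the results was not tested.

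Hepatocyte markers apart from albumin were present. Between HFD and ND 0 of 9 were called, with 2 at an unadjusted limma p under 0.05. Albumin was listed at 0 in 11 of 12 livers, which can be a failed estimate. It was at 0 in every ND and HFD liver, so it could not be called between them. It passed the filter through LU mouse 3 alone. Among the 9, Apoa1 was called higher in CLE than HFD livers (0.84, limma adjusted p = 0.04). Cps1 was called lower than ND in CLE livers (limma adjusted p = 0.0047) and LU livers (limma adjusted p = 0.011). Of 12 core clock genes 1 was called between HFD and ND, Ciart (1.22, limma adjusted p = 0.035), where 11.9% of all genes were. Against ND, 8 of 12 were called in CLE livers and 8 of 12 in LU livers, 6 higher and 2 lower in each. Of all genes, 26.7% were called for CLE and 14.6% for LU against ND. Whether the 9 genes moved with the clock genes was not tested. Summed FPKM per liver was 537476 to 563074 in ND, 567775 to 623873 in HFD, 563244 to 644663 in CLE and 586772 to 615209 in LU. The libraries differed in how levels followed GC content, with Spearman rho of -0.37 to -0.18 in ND, -0.37 to -0.14 in HFD, 0.16 to 0.47 in CLE and 0.21 to 0.35 in LU livers over 11951 genes, so that a supplement and this property of the libraries cannot be told apart. With a GC correction the Cd36 difference was -0.77 for CLE against HFD (limma adjusted p = 0.042). The correction left 5 of the 9 genes called for HFD against ND, where 1155 of 11951 genes were called.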

How the data were processed

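RNA of 12 livers was sequenced as paired reads of 100 bases. Per the submitters' processing notes, CASAVA 1.8.2, Bowtie2 2.2.3, TopHat2 2.0.12 and Cufflinks 2.2.1 were used. The authors deposited FPKM values for 152210 known and assembled transcripts, and whether their DEGES and edgeR normalization factors are included is not given in the sources used here. The table counts 30 samples in its assembly and holds 12. Depth is unknown, so no counting interval can be given. The genome build is not given in the sources used here, but 85.6% of known transcripts have the start and end of GENCODE M21 on GRCm38, whose coordinates are used. Rows were summed by the M21 gene of their reference transcript (143496 rows), since the deposited names label whole loci; for the 9 genes both give the same rows. Opposite-strand rows of a locus were included.

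Groups came from the labels, where the CLE group has another abbreviation. R 4.3.3 with limma 3.58.1 was run on log2(FPKM + 1) with variance trend and all 12 mice (12.7 degrees of freedom), two-sided, with a minimum mean of 0.5 FPKM. Where the study's methods name a count model, this fit takes its place because the values are not counts. It was tested on simulated data. Exact permutation tests used the F statistic. Python 3.11.15 was used for sums and sequences.

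The 9 genes and all lists were chosen with earlier results of these data known. Named are the 9 genes, up to 4 called genes of a list per comparison by largest change, the 3 tested genes most like each of the 9, and the transcripts that hold most of a gene. The Cd36 and Pparg starts, the marker genes at or near 0, the uncalled adipocyte markers, Gk and albumin were named after their values were seen. Alternatives were a pseudocount of 0.1, no filter, a minimum of 5 FPKM, median-of-ratios and quantile scaling, fits of 2 groups, no variance trend, the highest transcript, known transcripts, GC correction, a replicate block and each mouse left out. Sums by deposited names, sums without opposite-strand or intronic rows, and the 9 mice fitted without the block were added after seeing the data. One gene of a pathway list is not reported here.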

Additional observations from a re-analysis of the deposited data

How the results depend on the processing

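Of the 54 differences of the 9 genes, 17 were called, none of the 17 changed direction under any alternative or with any mouse left out, and 5 stayed past the threshold throughout. Lpl, Cd36 and Vldlr stayed called for HFD against ND wherever they were tested; with a minimum of 5 FPKM Vldlr was not tested. Apart from mice left out, 629 of 696 values kept direction and side of the threshold, 28 lost it, 10 gained it and 29 changed direction. Causes were not tested. With 3 mice a group and transcript values that are estimates, moderate differences such as those of Pparg and Fabp2 sit near the threshold.

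The number of genes called for HFD against ND was 669 with the highest transcript and 680 with known transcripts. For CLE against HFD it was 106 without a filter, 1032 with quantile scaling, 97 with 2 groups fitted, 259 with the highest transcript and 344 with GC correction. For LU against HFD it was 52 without a filter and 271 with 2 groups fitted, and for CLE against ND 1744 with 2 groups fitted and 2038 with GC correction. For CLE against LU it was 3 without a filter, 0 with a minimum of 5 FPKM (where the main fit called 1), and 2 with quantile scaling, the highest transcript or known transcripts. Of the 9 genes, CLE against HFD had 0 called without a filter, with 2 groups fitted, with the highest transcript and with known transcripts, and 2 with a minimum of 5 FPKM, quantile scaling or no variance trend. LU against HFD had 1 with 2 groups fitted.

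With 1 mouse left out, genes called ranged from 674 to 1688 for HFD against ND, 29 to 2261 for CLE against HFD, 20 to 552 for LU against HFD, 1587 to 3792 for CLE against ND, 649 to 2564 for LU against ND and 1 to 3 for CLE against LU. Of the 9 genes, 3 to 6, 0 to 5, 0 to 1, 2 to 5 and 2 to 7 were called in the first 5 of these.

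Some mouse numbers are shared by ND, CLE and LU mice, and the deviations of same-numbered livers correlated with r from -0.25 to 0.19. These few values, from groups of 3, were not set against differently numbered livers. They cannot decide whether the numbers pair the mice. With the replicate block in a fit of those 9 mice, 264 genes and 3 of the 9 were called for CLE against ND, 24 genes and 0 of the 9 for LU against ND, and 2 genes for CLE against LU; without the block the 9 mice gave 2513 genes and 5 of the 9 for CLE against ND, 1143 genes for LU against ND and 2 for CLE against LU. Under the block, CLE against LU turned to 0.40 for Cd36, -0.0090 for Fabp1, 0.029 for Slc27a4, 0.39 for Lpl and 0.29 for Vldlr. CLE mouse 11 and LU mouse 8 share their number with no other mouse. Each is fitted exactly by its own block and adds nothing to these differences. The fits with and without the block are therefore not like for like. HFD mice share no number with the others.

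Differences that were not called changed direction as follows. With known transcripts, Slc27a2 was -0.11 for CLE and -0.0058 for LU against HFD, and -0.37 and -0.27 against ND; Slc27a4 was -0.045 for HFD against ND, -0.70 for LU against HFD, and -0.96 for CLE and -0.75 for LU against ND; Lpl was 0.037 for LU against HFD. With the highest transcript, Slc27a2 was 0.40 and Slc27a4 -0.022 for HFD against ND, Slc27a4 was -0.71 for LU against HFD, -0.93 for CLE and -0.73 for LU against ND, Lpl was 0.083 for CLE and 0.17 for LU against HFD, and Cd36 was 0.10 for CLE against LU. With quantile scaling, Fabp1 was -0.037 for LU against HFD, and -0.12 for CLE and -0.15 for LU against ND. With GC correction, Fabp2 was 0.12 for CLE against HFD and Slc27a4 was -0.027 for LU against HFD and -0.10 for CLE against ND. Fabp4 was -0.012 for CLE against LU with median-of-ratios scaling. With 1 mouse left out, the uncalled differences that changed direction ranged from -0.055 to 0.29 for Pparg in CLE against ND, and from -0.33 to 0.076 for Cd36, -0.0027 to 0.37 for Fabp1, -0.36 to 0.30 for Fabp4, -0.041 to 0.046 for Slc27a2, -0.22 to 0.11 for Lpl, -0.24 to 0.26 for Vldlr in CLE against LU, and from -0.14 to 0.12 for Fabp2, -0.27 to 0.39 for Fabp4, -0.095 to 0.071 for Slc27a4 in CLE against HFD, and from -0.19 to 0.22 for Fabp4 in LU against HFD.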
